A study of Mus musculus with 8 samples.

Results

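The genes described here encode pattern-recognition receptors, taken as all protein-coding genes whose symbols name a Toll-like receptor (Tlr), a C-type lectin domain protein (Clec), an NLR protein (Nlrc, Nlrp, Nlrx1, Nod1, Nod2 or Naip) or one of the nucleic acid sensors Aim2, Ifih1 and Ddx58. The rule found 61 members among the 25247 genes of the count table, 16384 of them protein coding: 12 Toll-like receptors, 28 C-type lectin genes, 18 NLR genes and 3 nucleic acid sensors. A further 11 genes that fit the rule in the reference annotation, such as Nlrp2 and Clec2h, had no row in the count table and were not analysed here. The rule also leaves out langerin (Cd207), whose symbol does not begin with Clec, and Clec7a, the β-glucan receptor dectin-1, which GENCODE M21 gives as a polymorphic pseudogene.

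Toll-like receptors bind microbial lipids, proteins and nucleic acids at the cell surface or in endosomes and signal through the adaptors MyD88 and TRIF. C-type lectin receptors bind sugars of fungi, bacteria and self, and signal through the kinase Syk or through inhibitory phosphatases. NLR proteins and AIM2 act in the cytosol, where some of them assemble inflammasomes that activate caspase-1, while RIG-I (Ddx58) and MDA5 (Ifih1) sense RNA. Langerhans cells are the dendritic cells of the epidermis, and the receptors they carry are known to set which microbes they take up and answer to.

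RNA sequencing was done on Langerhans cells from ear epidermis of mice with the genotype EZH2 -/- (KO) and of wild-type mice (WT), all on a C57BL/6 background and untreated as far as the labels say. Ezh2 is the methyltransferase that Polycomb repressive complex 2 uses to place H3K27 methylation, and the series asks what it does for the migration of Langerhans cells and for protection in allergic contact dermatitis. The labels name neither a promoter or Cre line behind the deletion nor the animals' age, and whether each library is from an animal of its own is not said. The p-values therefore rest on library-to-library spread, part or all of which may be technical. Cells were sorted as live CD45+, MHC class II+, CD24+ and EpCAM+, and negative for Ly6G and CD103.

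The genotype of 4 of the 8 libraries is uncertain, because some samples carry one library code in the title and another in the description. RMN038 and RMN039 are KO and RMN030 and RMN031 are WT by both. RMN032 and RMN033 are KO by title and WT by description, and RMN036 and RMN037 are WT by title and KO by description. Each comparison is therefore given for the undisputed libraries (2 KO against 2 WT), for the title codes (4 against 4) and for the description codes (4 against 4), with none preferred. By their numbers, the codes are divided here into a later run (036 to 039) and an earlier run (030 to 033). These names come from the code numbers alone, not from a date or batch in the labels. Genotype coincides with run by the description codes, as it does among the undisputed libraries, and there genotype and run cannot be told apart.

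Total counts per library were 11051402 to 18966195. Cd207, the lectin that defines Langerhans cells, stood at 9706 to 11960 CPM (a gene's count scaled to its library's total) in all 8 libraries. All 14 Langerhans cell markers were at 1 CPM or more in each. The 12 keratinocyte markers summed to 13800 to 17900 CPM, and 11 of them were at 1 CPM or more in each library too. What keratinocyte RNA gave to the receptor levels was not tested. Ezh2 itself was at 12.7 and 10.5 CPM in RMN038 and RMN039, 19.0 and 17.6 CPM in RMN036 and RMN037, 15.2 and 14.9 CPM in RMN032 and RMN033, and 15.7 and 22.4 CPM in RMN030 and RMN031. No fit called it (edgeR quasi-likelihood adjusted p = 0.455 in the undisputed libraries, 0.998 by title codes and 0.869 by description codes), so the targeted gene does not settle the labels. Libraries RMN030 and RMN031 stand apart: 14 T cell markers summed to 281 and 253 CPM there, against 47.0 to 66.1 CPM in the other 6 libraries, and 6 thymocyte markers to 53.8 and 79.6 CPM, against 0 to 0.74 CPM. Later-run libraries had 3.76% to 4.03% of their counts in mitochondrial genes, and earlier-run libraries 1.02% to 1.87%. In bulk samples, fewer cells of a type and less RNA per cell cannot be told apart.

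Among the members tested for genotype, 4 had less CPM in each later-run than in each earlier-run library, as described further on, and their promoters are shown first. Each runs 5′ to 3′ on the gene's strand and ends at the RefSeq start or, where the GENCODE gene model begins earlier, just before that model (GRCm38.p6; Clec4a1 chr6:122921598-122921847, plus strand; Tlr2 chr3:83841768-83841858, minus strand; Nlrp3 chr11:59541319-59541567, plus strand; Nod2 chr8:88647097-88647314, plus strand). Capitals mark matches to the motifs searched.
Clec4a1: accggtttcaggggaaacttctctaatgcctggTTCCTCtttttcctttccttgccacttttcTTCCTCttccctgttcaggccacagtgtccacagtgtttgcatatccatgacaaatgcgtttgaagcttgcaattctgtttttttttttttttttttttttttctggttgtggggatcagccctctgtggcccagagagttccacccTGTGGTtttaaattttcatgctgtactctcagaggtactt
Tlr2: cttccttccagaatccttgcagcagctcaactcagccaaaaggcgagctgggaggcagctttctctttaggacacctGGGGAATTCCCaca
Nlrp3: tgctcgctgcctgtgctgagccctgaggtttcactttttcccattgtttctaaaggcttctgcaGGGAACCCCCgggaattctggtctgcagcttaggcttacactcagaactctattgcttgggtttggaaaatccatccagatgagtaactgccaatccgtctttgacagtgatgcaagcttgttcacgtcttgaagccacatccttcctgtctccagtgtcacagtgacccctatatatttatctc
Nod2: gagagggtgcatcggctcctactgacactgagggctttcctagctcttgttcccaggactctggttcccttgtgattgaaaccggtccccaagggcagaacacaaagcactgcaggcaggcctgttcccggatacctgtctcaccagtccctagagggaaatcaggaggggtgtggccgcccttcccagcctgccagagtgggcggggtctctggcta
The motifs were the PU.1 core GAGGAA, AP-1 TGANTCA, RUNX TGTGGT, the TATA box TATAAA, and the NF-κB consensus and the interferon-stimulated response element by their names, on both strands, and a base could belong to more than one motif. The Clec4a1 window held a pair of PU.1 cores and a RUNX motif, the Tlr2 and Nlrp3 windows an NF-κB consensus each, and the Nod2 window none of these letters.

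Promoters in RefSeq were found for 23 of the 27 expressed members, a class defined below, and 28 of the other 34. In the 250 bases upstream of the start, expressed members held a median of 4 CpG dinucleotides and other members 3.5, against 6 over all 27025 promoters and 16 over 8304 promoters of expressed protein-coding genes that are not members. Fewer than 5 CpG were present in 69.6% of expressed members' promoters, 71.4% of other members' promoters and 10.4% of those of the other expressed protein-coding genes. A PU.1 core was present in 34.8% of expressed members' promoters, 46.4% of other members' and 23.1% of all promoters, and a RUNX motif in 34.8%, 14.3% and 14.2%. No AP-1 motif lay in the windows of the 23 expressed members, against 6 of 28 other members and 6.86% of all promoters. An NF-κB consensus was present in 3 of the 23 windows of expressed members, in 2 of the 28 other windows and in 3.76% of all promoters. Unlike the printed windows, these were not cut at the GENCODE gene model. The RefSeq start lay 69725 bases from the GENCODE gene start for Aim2 and 16262 bases for Clec4a2. A match is a run of letters, not a bound site.

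Of the 61 members, 27 were expressed, defined as 1 CPM or more in all 8 libraries, 21 reached 1 CPM in some libraries, and 13 in none. Every member had at least 2 counts over the 8 libraries, but the 11 genes without a row are not among the 61. The expressed share was 44.3% of members, against 63.7% of the 16323 other protein-coding genes. Levels between genes are compared as TPM, which divides by exon length. The expressed class is set on CPM, without regard to length. Naip1 (5536 exon bases, 1.55 TPM) was in it, and Clec4a4 (776 exon bases, 2.57 TPM) was not. By that measure the 61 members summed to 846 ± 112 TPM (SD, n = 8), of which C-type lectin genes gave 56.5%, NLR genes 27.0%, Toll-like receptors 13% and the nucleic acid sensors 3.58%. Cd207 alone stood at 19030 ± 1095 TPM (SD, n = 8). Clec7a, outside the rule, had 457.8 to 690.2 CPM.

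**Figure D1:**
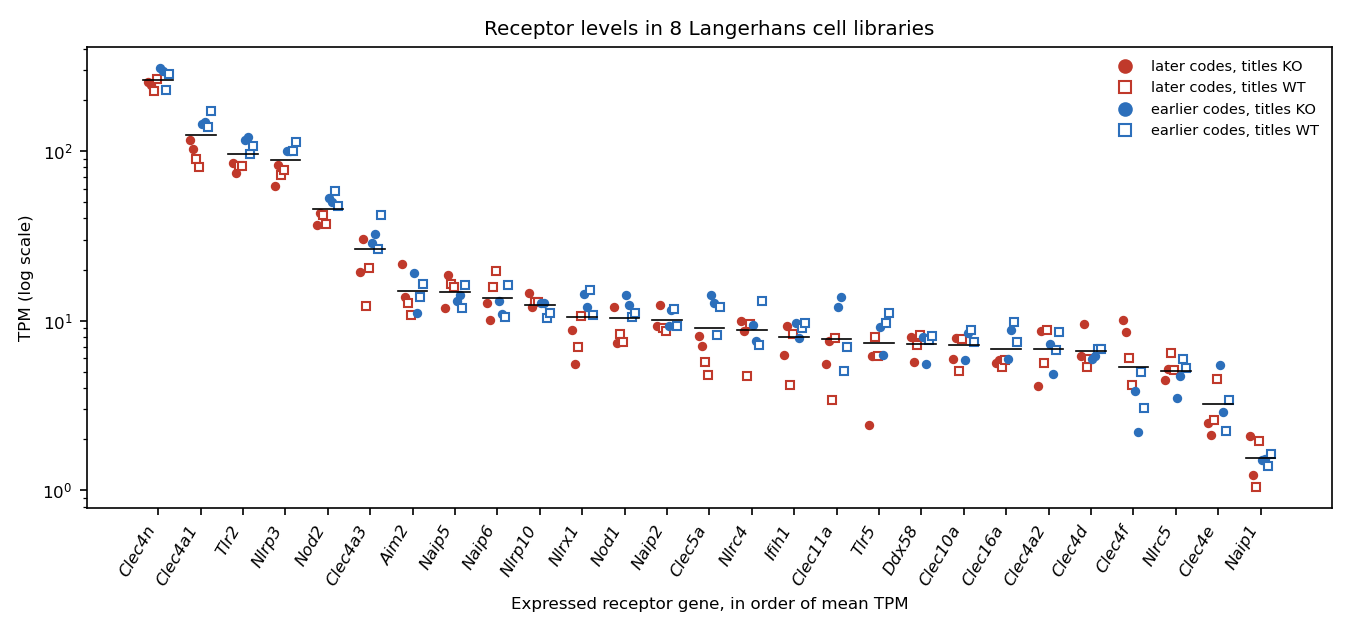
TPM on a log axis of the 27 expressed receptor genes in each of the 8 libraries, in order of mean TPM (black bars). Red points are later-run and blue points earlier-run libraries, filled circles are KO and open squares WT by title; Clec4n leads at 263.5 TPM, and Naip1 is lowest at 1.55 TPM.

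Clec4n, which encodes dectin-2, a receptor for fungal mannans that signals through the Fc receptor γ chain, had the highest level of any member at 263.5 ± 31.0 TPM (SD, n = 8). It was also the steadiest, with a ratio of 1.31 between its highest and lowest CPM. Clec4n stood at 138.6 and 134.2 CPM in RMN038 and RMN039, 122.8 and 142.8 CPM in RMN036 and RMN037, 154.6 and 151.0 CPM in RMN032 and RMN033, and 118.0 and 143.7 CPM in RMN030 and RMN031. The genotypes overlapped in all 3 assignments. Clec4a1 followed at 124.0 ± 32.1 TPM, and Clec4a3 at 26.5 ± 9.1 TPM; both belong to the DCIR group of lectins around the inhibitory receptor Clec4a2, which was at 6.85 TPM. Clec4a3 had 9.87 and 15.4 CPM in RMN038 and RMN039, 6.25 and 10.3 CPM in RMN036 and RMN037, 13.5 and 15.5 CPM in RMN032 and RMN033, and 12.8 and 19.7 CPM in RMN030 and RMN031. Its genotypes overlapped too in each assignment.

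These lectin genes sit together. Within 368.0 kb of chromosome 6 (122921848 to 123289870, GRCm38), 8 members lie side by side, and they carried 434.4 ± 64.7 TPM (SD, n = 8), or 51.4% of the summed level of all 61 members. The level was uneven along the cluster: 6 of the 8 were expressed. The short genes Clec4a4 (2.57 TPM, 776 exon bases) and Clec4b1 (1.27 TPM, 784 exon bases) did not reach the CPM threshold in all libraries. Clec4d and Clec4e, which encode the glycolipid receptors MCL and Mincle at the far end, stood at 6.61 and 3.23 TPM. A second group of 9 lectin genes on the same chromosome (128887588 to 129452000), including Clec9a, a receptor for dead cells that marks cross-presenting dendritic cells, Clec12a and several Clec2 genes, had no expressed member and summed to 5.96 TPM.

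**Figure D2:**
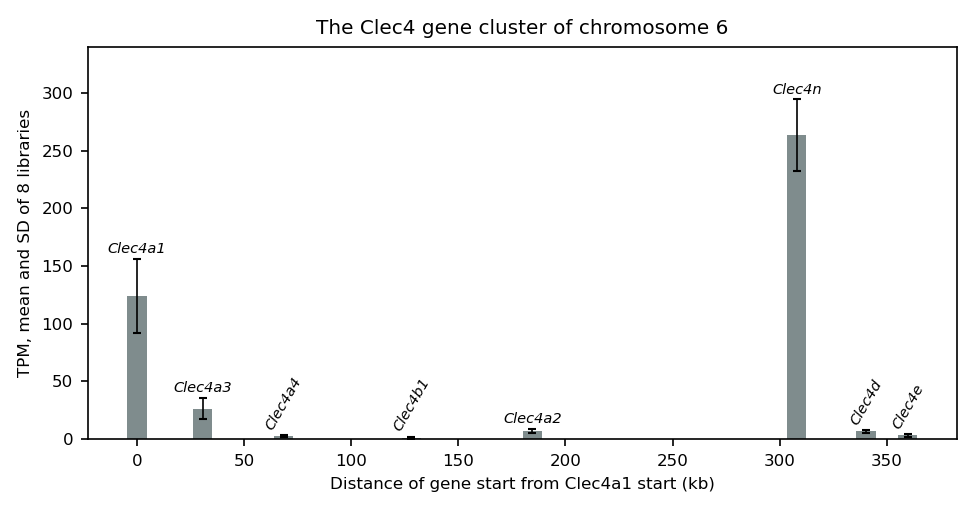
Mean TPM with SD over 8 libraries of the 8 C-type lectin genes of one chromosome 6 cluster, against the distance of each gene from Clec4a1 in kb. Clec4a1 and Clec4n stand above the rest at 124.0 and 263.5 TPM.

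Among the other expressed lectin genes, Clec5a, which signals through DAP12, stood at 9.11 TPM, the galactose-type lectin gene Clec10a at 7.16 TPM, and Clec4f, known as a receptor of Kupffer cells in the liver, at 5.37 TPM. Clec4f lies 15.0 kb from Cd207 on the same strand. Clec11a (7.82 TPM) encodes a secreted growth factor and Clec16a (6.85 TPM) an intracellular protein of autophagy, so both fit the symbol rule without being surface receptors. The trace class held 9 lectin genes, among them Clec1a, Clec3b and Clec14a, none above 0.797 CPM in any library. A count of 0 in a library allows up to 0.158 to 0.271 CPM, depending on its total, from counting error alone.

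Of the 12 Toll-like receptor genes, 2 were expressed. Tlr2, the receptor for bacterial lipopeptides, stood at 95.4 ± 17.5 TPM (SD, n = 8), and Tlr5, the receptor for flagellin, at 7.38 ± 2.7 TPM. Tlr2 pairs with Tlr1 or Tlr6; Tlr1 reached 0.490 CPM at most in any library and Tlr6 ranged from 0.543 to 4.74 CPM. The lipopolysaccharide receptor gene Tlr4 averaged 0.837 CPM, with 2.82 CPM at most, the double-stranded RNA receptor gene Tlr3 1.23 CPM, and the endosomal receptor genes Tlr7, Tlr8 and Tlr9 0.714, 0.321 and 1.74 CPM. Tlr9 ranged from 0.181 to 3.83 CPM, so single libraries say little about these low genes.

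Nlrp3, which encodes the sensor of the best known inflammasome, and Nod2, the receptor for muramyl dipeptide, led the NLR genes at 88.5 ± 17.2 and 45.8 ± 7.5 TPM (SD, n = 8). Nlrp3 and Tlr2 differed by less than their spread. Nod1, which senses another peptidoglycan fragment, stood at 10.4 ± 2.5 TPM, with 23.7 and 14.5 CPM in RMN038 and RMN039, 16.3 and 14.5 CPM in RMN036 and RMN037, 25.4 and 22.5 CPM in RMN032 and RMN033, and 19.6 and 19.9 CPM in RMN030 and RMN031. Nlrx1, an NLR protein of mitochondria, was at 10.6 ± 3.4 TPM, with 19.5 and 12.3 CPM in RMN038 and RMN039, 15.5 and 23.3 CPM in RMN036 and RMN037, 29.2 and 24.8 CPM in RMN032 and RMN033, and 31.8 and 21.9 CPM in RMN030 and RMN031. For Nod1 the groups overlapped in every assignment, and for Nlrx1 the undisputed KO libraries were both below the undisputed WT ones. In Nlrx1, 11.9% of exon bases overlap the gene Gm10686 on the other strand, and whether the counting used strand is not known.

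The NAIP proteins bind flagellin and type III secretion proteins and activate Nlrc4 (8.79 TPM). All 4 Naip members were expressed, from 1.55 TPM for Naip1 to 14.8 ± 2.4 TPM for Naip5, within 308.8 kb of chromosome 13. Naip5 had 23.9 and 37.4 CPM in RMN038 and RMN039, 33.0 and 31.0 CPM in RMN036 and RMN037, 24.1 and 26.5 CPM in RMN032 and RMN033, and 22.5 and 29.9 CPM in RMN030 and RMN031. Naip6 (13.7 ± 3.3 TPM) had 33.5 and 26.6 CPM in RMN038 and RMN039, 41.5 and 51.0 CPM in RMN036 and RMN037, 31.5 and 26.7 CPM in RMN032 and RMN033, and 26.4 and 39.4 CPM in RMN030 and RMN031. Both overlapped between genotypes in each assignment. Their levels are uncertain as single genes, because 36.9% of the 50-base stretches of Naip5 transcripts also occur in transcripts of other genes, as do 21.5% of those of Naip6, 31.5% of Naip1 and 19.1% of Naip2. The same share was 15.7% for Clec4a4, 15.4% for Tlr1, 12.3% for Tlr6 and 10.9% for Nlrx1, and 0 for Clec4a1, Clec4a3, Tlr2 and Nlrp3. For Clec10a it was 9.02%, and 8.49% of its stretches occur in Mgl2 transcripts. Mgl2 averaged 130.7 CPM and Clec10a 7.68 CPM, so the level of Clec10a is uncertain too.

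Nlrp10, an NLR protein without leucine-rich repeats, was at 12.4 ± 1.3 TPM. It had 25.3 and 20.8 CPM in RMN038 and RMN039, 22.5 and 22.2 CPM in RMN036 and RMN037, 20.2 and 20.5 CPM in RMN032 and RMN033, and 17.1 and 17.8 CPM in RMN030 and RMN031. It was the only tested member whose KO libraries all lay above all WT libraries by the description codes. Nlrc5, a transactivator of MHC class I genes, stood at 5.08 TPM. Aim2, which senses double-stranded DNA, was the highest of the nucleic acid sensors at 14.9 ± 3.8 TPM, ahead of Ifih1 (8.05 TPM) and Ddx58 (7.31 TPM). Aim2 had 29.0 and 18.6 CPM in RMN038 and RMN039, 17.1 and 14.3 CPM in RMN036 and RMN037, 23.5 and 13.97 CPM in RMN032 and RMN033, and 17.6 and 20.4 CPM in RMN030 and RMN031, with overlap in each assignment.

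The summed level of the 61 members was lower in every later-run library than in every earlier-run library. It was 768.4, 772.1, 701.2 and 761.7 TPM in RMN038, RMN039, RMN036 and RMN037, against 972.5, 951.0, 848.3 and 992.5 TPM in RMN032, RMN033, RMN030 and RMN031. By description codes this sets KO at 750.9 ± 33.4 TPM below WT at 941.1 ± 64.2 TPM (SD, n = 4 each), and by title codes KO stood at 866.0 ± 110.9 and WT at 825.9 ± 126.4 TPM, with overlap. The families moved unevenly: NLR genes summed to 190.8 to 214.8 TPM in the later and 242.4 to 263.6 TPM in the earlier run, Toll-like receptors to 85.0 to 99.1 and 112.2 to 133.7 TPM, and C-type lectin genes to 373.3 to 448.1 and 455.1 to 568.8 TPM, while the nucleic acid sensors overlapped. On the CPM scale the members summed to 804.9 to 854.1 CPM in the later and 926.6 to 1003 CPM in the earlier run. Leaving mitochondrial genes out of the total gave 838.7 to 887.6 and 936.1 to 1021 CPM, and TMM-scaled totals 812.9 to 868.3 and 940.4 to 982.7 CPM, so the runs stayed apart on these scales.

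**Figure D3:**
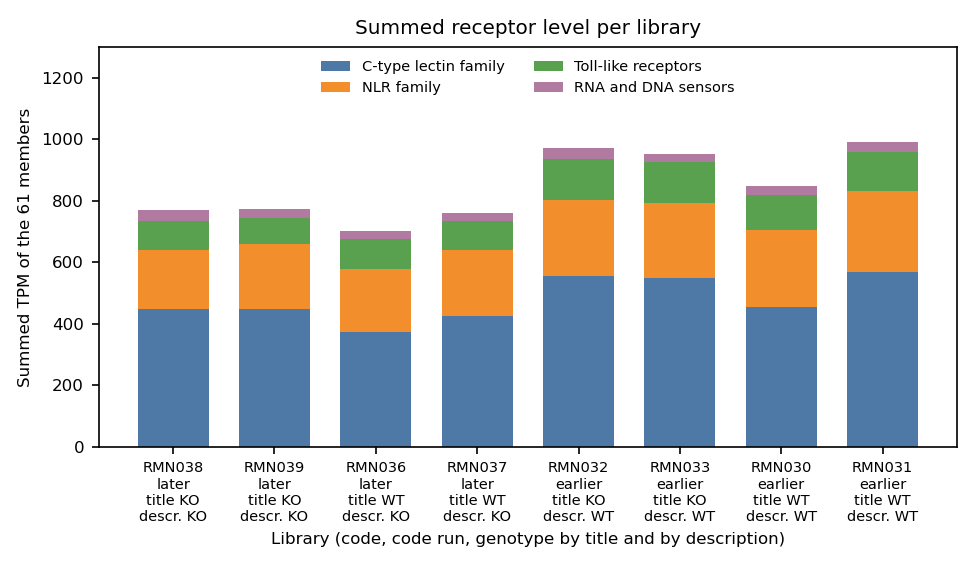
Summed TPM of the 61 members in each library, stacked by family, with the undisputed KO libraries at the left and the undisputed WT libraries at the right. The 4 later-run libraries reach 701.2 to 772.1 TPM and the 4 earlier-run libraries 848.3 to 992.5 TPM.

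A few genes made up this difference. The net difference was -130.0 CPM (later minus earlier), of which Nlrp3, Clec4a1 and Tlr2 together gave 66.2% and Nod2 another 13.2%. Over all 61 members, 32 had a lower and 29 a higher mean CPM in the later run. Without the 5 members of highest TPM (Clec4n, Clec4a1, Tlr2, Nlrp3 and Nod2), the sums overlapped, at 340.2 to 380.8 CPM in the later and 358.4 to 404.3 CPM in the earlier run. Clec7a, outside the rule, was at 513.0 to 629.9 CPM in the later and 457.8 to 690.2 CPM in the earlier run and overlapped as well.

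Clec4a1 had 69.6 and 61.3 CPM in RMN038 and RMN039, 54.0 and 47.3 CPM in RMN036 and RMN037, 79.7 and 83.0 CPM in RMN032 and RMN033, and 78.1 and 95.3 CPM in RMN030 and RMN031. Nlrp3 had 96.7 and 129.4 CPM in RMN038 and RMN039, 113.1 and 119.7 CPM in RMN036 and RMN037, 143.5 and 144.9 CPM in RMN032 and RMN033, and 148.1 and 161.8 CPM in RMN030 and RMN031. Each of the 4 later-run values of these genes lay below each of the 4 earlier-run values, whichever genotype the titles give. Tlr2 had 98.7 and 86.4 CPM in RMN038 and RMN039, 94.6 and 93.4 CPM in RMN036 and RMN037, 123.8 and 130.8 CPM in RMN032 and RMN033, and 105.0 and 114.3 CPM in RMN030 and RMN031. Nod2 had 71.0 and 83.1 CPM in RMN038 and RMN039, 80.3 and 70.2 CPM in RMN036 and RMN037, 93.2 and 90.1 CPM in RMN032 and RMN033, and 105.8 and 84.0 CPM in RMN030 and RMN031. The runs separated for Tlr2. For Nod2 they separated only on column totals (83.1 CPM at most in the later and 84.0 CPM at least in the earlier run) and overlapped with TMM-scaled totals (85.0 and 82.3 CPM) and without mitochondrial genes (86.3 and 85.4 CPM). Clec4a1, Nlrp3, Tlr2 and, in the other direction, Nlrp10 stayed apart on all 3 scales, a check chosen after seeing the data. The promoters printed above are those of Clec4a1, Tlr2, Nlrp3 and Nod2, not of Nlrp10. They share no motif of the search across all 4, since the Nod2 window held none.

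**Figure D4:**
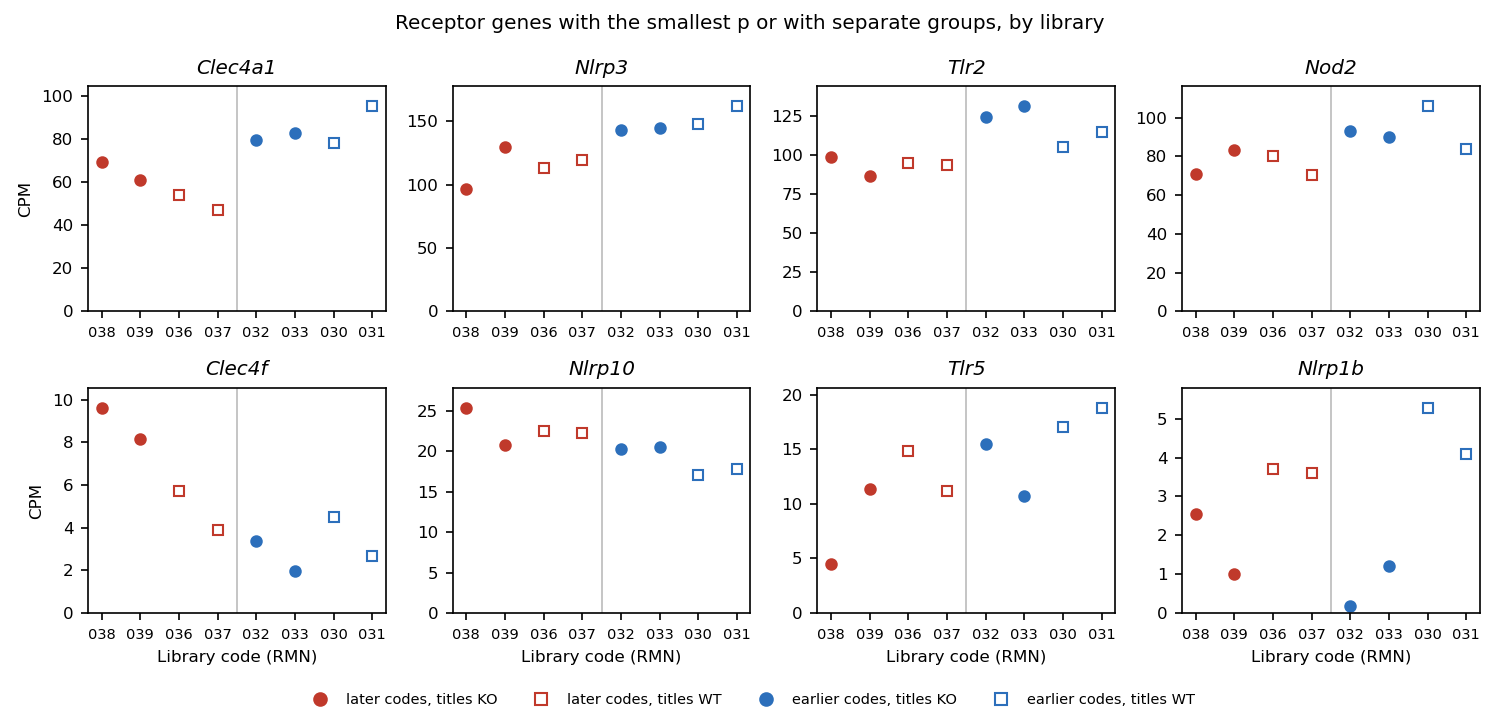
CPM (linear axis from 0) of 8 receptor genes in each library, with later-run libraries left and earlier-run libraries right of the grey line, filled circles for KO and open squares for WT by title. Clec4a1, Nlrp3 and Tlr2 are lower in all 4 later-run libraries, as is Nod2 on this scale though not with TMM-scaled totals or without mitochondrial genes; Nlrp10 is higher, and Nlrp1b separates by title.

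By the description codes, 0 of the 42 members tested were called in either direction at an adjusted p of 0.05 (edgeR quasi-likelihood test, Benjamini-Hochberg over 14630 genes), where 1.43% of all genes tested were called higher and 0.595% lower in KO. The smallest p belonged to Clec4a1, at 58.0 ± 9.6 CPM in KO and 84.0 ± 7.8 CPM in WT (SD, n = 4 each), and its log2 fold change was -0.49 (SE 0.133, edgeR adjusted p = 0.0862). Nlrp3 was at 114.7 ± 13.7 CPM in KO and 149.6 ± 8.4 CPM in WT, with a log2 difference of -0.34 (SE 0.104, edgeR adjusted p = 0.141). For Tlr2 the values were 93.3 ± 5.1 and 118.5 ± 11.3 CPM in KO and WT, with a log2 difference of -0.30 (SE 0.096, edgeR adjusted p = 0.156). DESeq2, run as an alternative, called these 3 genes lower and no member higher, so 3 of the 44 members it gave an adjusted p (6.82%), where it called 1.67% of all such genes lower and 2.89% higher. Its log2 fold changes were close to those of edgeR, and its adjusted p was 0.0198 for Clec4a1 and 0.0473 for Nlrp3. DESeq2 was the only one of 15 alternatives to call them; over all 15 the adjusted p ran from 0.0198 to 0.352 for Clec4a1, 0.0473 to 0.479 for Nlrp3 and 0.0467 to 0.383 for Tlr2. Without RMN030 and RMN031, the libraries with T cell transcripts, the edgeR log2 fold changes were -0.43, -0.27 and -0.39 for Clec4a1, Nlrp3 and Tlr2.

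Clec4f, which passed the test in no fit, had 9.59 and 8.14 CPM in RMN038 and RMN039, 5.71 and 3.90 CPM in RMN036 and RMN037, 3.37 and 1.95 CPM in RMN032 and RMN033, and 4.51 and 2.69 CPM in RMN030 and RMN031. The 2 undisputed KO libraries were the highest of all 8, while the description-code groups overlapped through RMN037 and RMN030. Its log2 fold change was 1.17 by description codes (SE 0.363, edgeR adjusted p = 0.147) and 1.35 in the undisputed libraries (SE 0.432, edgeR adjusted p = 0.242). Clec5a had 12 and 10.4 CPM in RMN038 and RMN039, 8.40 and 7.01 CPM in RMN036 and RMN037, 19.2 and 17.6 CPM in RMN032 and RMN033, and 11.5 and 16.3 CPM in RMN030 and RMN031. The description-code groups overlapped for Clec5a through RMN038 and RMN030, and its log2 fold change was -0.73 (SE 0.229, edgeR adjusted p = 0.149). By the description codes, 4 members lay lower in KO without overlap in CPM of column totals, Nod2 among them (9.52% of the 42 tested, against 5.09% of all genes) and 1 higher (2.38%, against 3.74%).

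In the undisputed libraries, 0 of 41 members tested were called (edgeR), where 0.448% of 14727 genes were called higher and 0.346% lower in KO. DESeq2 also called 0 of the 44 members it gave an adjusted p there, with 1.07% of genes higher and 0.755% lower. In simulated data the edgeR fit of these libraries recovered only 18% of 2-fold changes. Besides Clec4f, the smallest p belonged to Tlr5, with 4.48 and 11.4 CPM in RMN038 and RMN039, 14.8 and 11.2 CPM in RMN036 and RMN037, 15.4 and 10.8 CPM in RMN032 and RMN033, and 17.0 and 18.7 CPM in RMN030 and RMN031. Its log2 fold change was -1.14 (SE 0.414, edgeR adjusted p = 0.323), and RMN038 carried the lowest value. Without RMN039, and so with RMN038 as the lone KO library, Tlr5 was called lower by edgeR (log2 fold change -1.96, adjusted p = 0.003), where 1.28% of genes were called lower and 1.47% higher. Without RMN038 its log2 fold change was -0.60 (edgeR adjusted p = 0.672). Nlrp1a was called lower without RMN038 (1.08% of genes lower, 1.12% higher), and Nlrc3, an inhibitory NLR, higher without RMN031 (2.64% of genes higher, 1.38% lower). Each of these left 1 library in a group and 1 member called. RMN030 and RMN031 are the only undisputed WT libraries, so this comparison could not be made without them. For Nlrp3 the undisputed log2 fold change was -0.41 (SE 0.174, edgeR adjusted p = 0.416) and for Nlrx1 -0.71 (SE 0.315, edgeR adjusted p = 0.435). Groups of 2 lay apart often: 13 members were lower in KO without overlap (31.7%, against 25.2% of all genes) and 3 higher (7.32%, against 16.9%).

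By the title codes, 0 of 42 members tested were called (edgeR), and 0% of all genes in either direction. DESeq2 called 0 of 61, with 0.0476% of genes higher and 0.0476% lower. Nlrp1b, whose protein is a sensor of anthrax lethal toxin in some mouse strains, had the smallest p. It had 2.56 and 0.995 CPM in RMN038 and RMN039 and 0.184 and 1.21 CPM in RMN032 and RMN033, all KO by title, against 3.70 and 3.60 CPM in RMN036 and RMN037 and 5.27 and 4.09 CPM in RMN030 and RMN031, all WT by title. It was the only tested member whose title groups did not overlap (2.38% lower, against 1.53% of all genes), and 0 were higher, against 1.41%. Its log2 fold change was -1.74 (SE 0.586), with an unadjusted edgeR p of 0.0115 and an adjusted p of 0.998. Within the runs the log2 fold change was -0.998 in the later and -2.74 in the earlier, and without RMN030 and RMN031 it was -1.55. Nlrp1b and its neighbour Nlrp1a share few transcript stretches (1.45% of those of Nlrp1b occur elsewhere), and Nlrp1a overlapped between the title groups, at 0.724 to 7.66 CPM in KO and 6.73 to 9.77 CPM in WT.

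Clec11a had 6.39 and 8.69 CPM in RMN038 and RMN039, 3.90 and 8.99 CPM in RMN036 and RMN037, 12.8 and 14.8 CPM in RMN032 and RMN033, and 5.50 and 7.43 CPM in RMN030 and RMN031. It was highest in the disputed RMN032 and RMN033, and its title-code log2 fold change was 0.71 (SE 0.316, edgeR adjusted p = 0.998), with 0.25 in the later and 1.05 in the earlier run. For Naip6 the title-code log2 fold change was -0.42 (SE 0.189, edgeR adjusted p = 0.998), with -0.59 in the later and -0.21 in the earlier run. Tlr6 had 1.28 and 0.543 CPM in RMN038 and RMN039, 4.03 and 4.74 CPM in RMN036 and RMN037, 2.33 and 2.74 CPM in RMN032 and RMN033, and 2.52 and 2.26 CPM in RMN030 and RMN031. Its title-code log2 fold change was -0.98 (SE 0.496, edgeR adjusted p = 0.998), and the title groups overlapped through RMN032 and RMN033. A test of whether the title-code effect differed between the runs called 0 of 47 members, and 0.0186% of 16146 genes (edgeR interaction term).

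**Figure D5:**
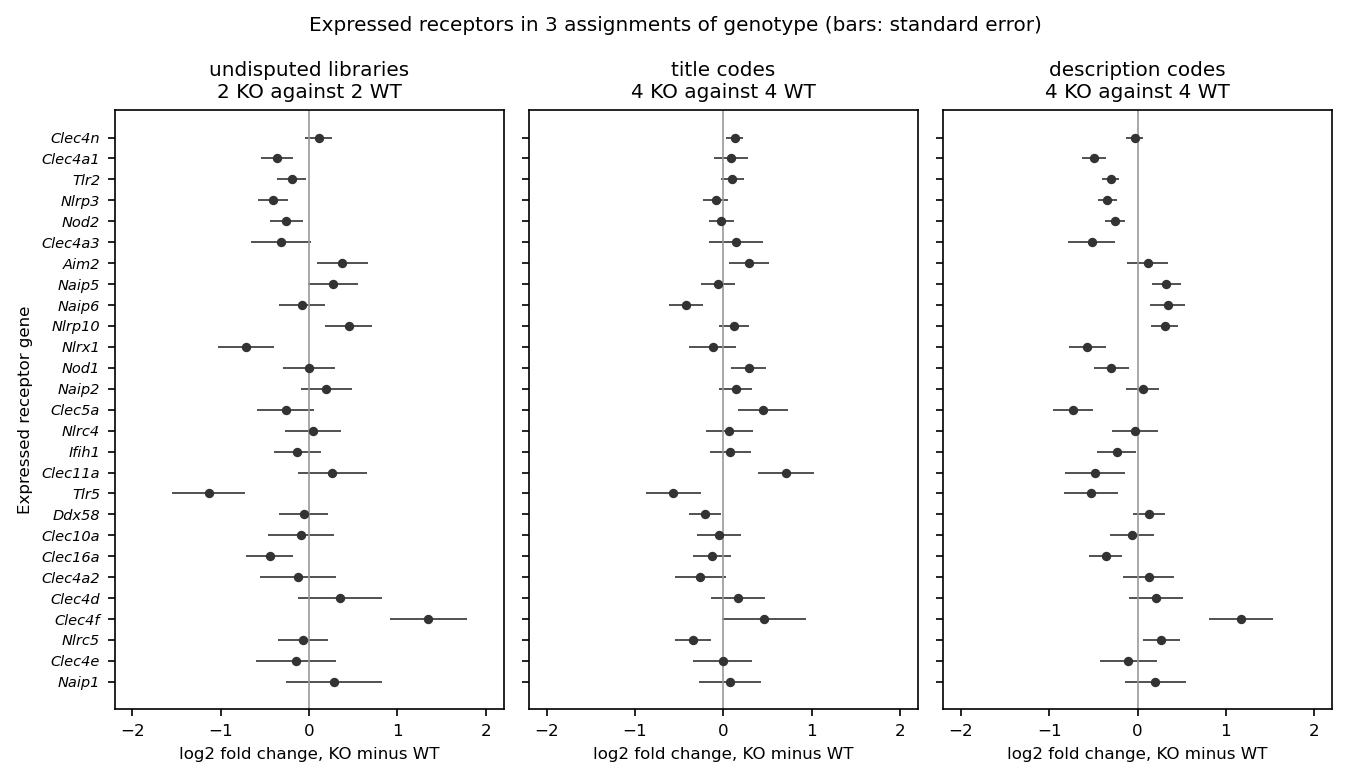
Log2 fold change with standard error (KO minus WT, edgeR) of the 27 expressed members in the undisputed libraries, by title codes and by description codes. Clec4a1, Nlrp3, Tlr2 and Nod2 lie left of 0 in the undisputed and description-code panels and near 0 in the title-code panel; no member passed an adjusted p of 0.05 in any panel.

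Among the members tested, the median log2 fold change was -0.091 in the undisputed libraries, against -0.002 over all genes tested. It was 0.028 by title codes, against -0.003, and -0.045 by description codes, against -0.008. At an unadjusted edgeR p under 0.05, 6 members were lower and 1 higher in KO by description codes (14.3% and 2.38%, against 5.8% and 6.84% of all genes). The counts were 3 lower and 1 higher in the undisputed libraries, against 5.32% and 5.93% of all genes, and 2 lower and 1 higher by title codes, against 2.41% and 2.18%. Members low in the table entered only where the filter on low counts let them, so these counts do not stand for all 61.

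The partners of these receptors were present in the same libraries. Of 15 Toll-like receptor cofactors and adaptors, 11 were expressed, led by the inhibitor Tollip (216.1 TPM) and the chaperone Hsp90b1 (141.9 TPM), and edgeR called none of those tested, 13 in the undisputed libraries and 14 by each code. Of 16 kinases and ubiquitin ligases of the pathway, all were expressed and tested, and by description codes, where 1.43% of all genes were called higher and 0.595% lower, Peli1 rose and Tnfaip3 fell. Peli1, an E3 ligase, was at 264.0 ± 39.2 CPM in KO and 190.3 ± 19.6 CPM in WT (SD; log2 fold change 0.52, SE 0.118, edgeR adjusted p = 0.0413). Tnfaip3, which encodes the NF-κB inhibitor A20, was at 1876 ± 41 CPM in KO and 2360 ± 96 CPM in WT (log2 fold change -0.29, SE 0.065, edgeR adjusted p = 0.0401). Of 15 tested genes of C-type lectin signalling, 1 fell by description codes: Inpp5d, the lipid phosphatase SHIP-1, at 394.0 ± 11.1 CPM in KO and 525.3 ± 19.8 CPM in WT (log2 fold change -0.37, SE 0.076, edgeR adjusted p = 0.0233).

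All 14 inflammasome and pyroptosis genes were expressed and tested, and 3 were called by description codes, 1 higher and 2 lower, beside 1.43% and 0.595% of all genes. Il1b, the cytokine that caspase-1 activates, had 660.4 and 666.1 CPM in RMN038 and RMN039, 642.8 and 585.0 CPM in RMN036 and RMN037, 1008 and 961.2 CPM in RMN032 and RMN033, and 1066 and 945.8 CPM in RMN030 and RMN031. It fell in KO by description codes (log2 fold change -0.60, SE 0.082, edgeR adjusted p = 0.00225), and its adjusted p stayed at or below 0.0129 in all 15 alternatives, 0.00708 without RMN030 and RMN031 among them. By title codes its log2 fold change was 0.01 (SE 0.192, edgeR adjusted p = 0.998). Txnip, a partner of NLRP3, fell by description codes (log2 fold change -0.41, SE 0.089, edgeR adjusted p = 0.0321) and Il1rn, the antagonist of the same receptor as Il1b, rose (log2 fold change 0.65, SE 0.153, edgeR adjusted p = 0.0455). Apart from Il1b, these calls were frail. With 1 library left out in turn, Peli1 lost its call in 5 of 8 cases (it kept it without RMN031, RMN036 or RMN037), Txnip in 6 (kept without RMN030 or RMN031), Inpp5d in 6 (kept without RMN030 or RMN032), Tnfaip3 in 7 (kept without RMN030) and Il1rn in 7 (kept without RMN032). Without both RMN030 and RMN031, Txnip (edgeR adjusted p = 0.021) and Tnfaip3 (0.0481) kept their calls, while Inpp5d (0.0952), Peli1 (0.0708) and Il1rn (0.281, log2 fold change 0.45) lost theirs.

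None of these 6 genes was called in the undisputed libraries or by title codes. Of the 12 listed genes of NOD signalling, 11 were tested in the undisputed libraries and 12 by each code. These genes, led by Birc3 (92.1 TPM) and Rbck1 (74.2 TPM), the 15 tested of 16 listed partners of RNA and DNA sensing, led by Irf5 (290.1 TPM) and Irf3 (43.2 TPM), and the tested lectin-domain genes outside the rule (18 of 24 in the undisputed libraries, 16 by each code), led by Cd207 and Cd72 (225.5 TPM), had no gene called by edgeR in any of the 3 fits.

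Genes listed as markers of other cells also differed between the runs. The 7 mast cell markers summed to 47.6 to 66.4 CPM in the later and 31.1 to 43.4 CPM in the earlier run, and 6 fibroblast markers to 77.5 to 143.0 and 22.0 to 50.2 CPM. For 8 platelet and red blood cell genes the sums were 583.0 to 1360 and 124.0 to 231.0 CPM. Hbb-bs, Hbb-bt, Hba-a1, Hba-a2 and Alas2 carried that difference. The platelet genes Pf4, Ppbp and Itga2b overlapped between the runs and reached 4.06 CPM at most. The 10 listed markers of conventional and dermal dendritic cells summed to 810.0 to 882.0 CPM in the later and 940.0 to 1010 CPM in the earlier run. The largest parts came from Itgax (381.3 CPM on average), Sirpa (197.7 CPM) and Mgl2 (130.7 CPM), while Xcr1 averaged 0.103 CPM and Batf3 0.772 CPM. Whether Langerhans cells themselves gave this sum was not tested. The sums of 14 monocyte and macrophage markers overlapped, at 827.0 to 878.0 and 703.0 to 950.0 CPM, but single markers differed: of 12 tested by description codes, edgeR called Lyz2, F13a1 and Ccr2 higher and C1qa lower in KO. Lyz2, a lysozyme gene, averaged 135.4 ± 18.3 CPM in KO and 62.6 ± 16.3 CPM in WT, and C1qa, a complement gene of macrophages, 61.5 ± 13.8 CPM in KO and 111.3 ± 19.9 CPM in WT (SD, n = 4 each). The sums of 12 keratinocyte markers also overlapped, at 14300 to 16500 and 13800 to 17900 CPM. Of 11 tested by description codes, Krt1 and Krt79 were called higher and Krt15 and Trp63 lower in KO. In that fit, 4 of 5 tested mast cell, 3 of 5 fibroblast and 5 of 6 platelet and red blood cell genes were higher. So was the Langerhans cell marker Tgfbr2, beside 1.43% of all genes called higher and 0.595% lower. In the undisputed libraries edgeR called Lyz2, Cd163, F13a1, Krt79, Mcpt4, Dcn and Lum higher and Trp63 and Ccr9 lower. Of 7 tested platelet and red blood cell genes, 5 were higher there. All 4 tested thymocyte markers and 7 of 13 tested T cell markers were lower, beside 0.448% of all genes called higher and 0.346% lower. No marker was called by title codes. Neutrophil markers (6 in the table) summed to 3.29 CPM at most and natural killer cell markers (3 in the table) to 1.95 CPM. The part of these cells, of the mitochondrial share and of the code run in the lower Clec4a1, Nlrp3, Tlr2 and Nod2 was not tested.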

How the data were processed

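The authors deposited 1 table of whole-number read counts, genes by 8 libraries, not normalized. The submitters' processing notes name the tools STAR (2.5.2b) and featureCounts (1.5.0) and the build GRCm38 (mm10); the annotation release, strand setting and treatment of read pairs are not given in the sources used here. Among counts from 1 to 20, 60.1% were even, which separate counting of the mates of a pair would give, and limits from counting error may then be too narrow. Every pair of libraries differed beyond sampling noise (chi-square per gene 11.7 or more). Columns without a sample numbered 0.

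Symbols (25080 of 25247 matched), gene types, coordinates and exon lengths came from GENCODE M21 (GRCm38), and promoters from RefSeq. CPM uses the column total, and TPM the union exon length. Fits used edgeR 4.0.16 in R 4.3.3 (filterByExpr, TMM, robust quasi-likelihood F-tests, two-sided, Benjamini-Hochberg over all genes tested, threshold 0.05), each on its own libraries without a block, and were tested on simulated data. In the simulated data, the undisputed fit recovered 18% of 2-fold and 93% of 4-fold changes. Recovery was 69% and 100% by title codes, and 72% and 99% by description codes. A lack of calls therefore does not show a lack of change. The SE comes from the F statistic of each fit. Alternatives were DESeq2 1.42.0, limma voom (3.58.1) with quality weights, RLE scaling, a 1 CPM filter or none, leaving out single libraries, a block for replicate number, the code run as a covariate or each run alone, and fits without RMN030 and RMN031.

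Values per library are given for the 12 expressed members of highest TPM, the 4 members with the smallest p in each fit and any called; of each pathway list, for genes called, otherwise the 2 highest. Nlrp1a, Nlrc3, Nlrc5, Clec7a and other genes named outside this rule were chosen after their values were seen. Members and lists were chosen with earlier results of these data known.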

Additional observations from a re-analysis of the deposited data

Results flagged for a closer look

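In 104 groups of 4 libraries (26 named genes, both genotypes, title and description codes), 2 held a library far from the other 3 by Dixon's ratio; chance gives about 1 in 20 groups, or 5.2. Nlrp10 stood at 25.3 CPM in RMN038, against 20.2 to 20.8 CPM in the other KO libraries by title codes. Nlrc3 stood at 6.09 CPM in RMN031, against 0 to 0.527 CPM in the other WT libraries by description codes. RMN031 is also one of the 2 libraries with T cell and thymocyte transcripts. The other, RMN030, had 0 counts of Nlrc3, and RMN036, RMN037, RMN038 and RMN039 had 3.90, 0.240, 2.27 and 3.71 CPM. The part of the T cell and thymocyte transcripts in the Nlrc3 value was not tested.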

How the results depend on the processing

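The edgeR fits called 0 members, and so did RLE scaling, both filter settings and limma in each assignment, the fits with a replicate block (0 members by title and 0 by description codes), the title-code fits with the run as a covariate or in each run alone, and the fits without RMN030 and RMN031. DESeq2 called 3 members by description codes (Clec4a1, Nlrp3 and Tlr2), which the report gives. Leaving out 1 library gave 0 calls by title and description codes and 0 to 1 in the undisputed libraries: Nlrc3 higher without RMN031 (2.64% of genes called higher), Nlrp1a lower without RMN038 (1.08% called lower) and Tlr5 lower without RMN039; the lone library's spread is taken to equal that of the opposite group. The log2 fold change of Nlrc3 ran from -0.967 to 8.26 over these fits (0.01 with all 4; -0.967 without RMN030 and -0.398 without RMN039); 8.26 is a fitted value against RMN030, which had 0 counts, and no measured fold. That of Tlr6 by title codes was 0.049 in the earlier run alone, against -2.21 in the later; the cause was not tested. Same-numbered libraries correlated at 0.052 to 0.101 (title) and -0.007 to 0.03 (description), and 2 and 1 of 8 libraries matched their own number best, so the numbers were not taken to pair samples; the undisputed libraries share no number. By description codes the block ended the calls of Inpp5d, Txnip, Tnfaip3 and Peli1. The gap between the runs of Nod2 was 0.909 CPM on column totals, -2.70 CPM with TMM-scaled totals and -0.886 CPM without mitochondrial genes (negative: overlap). The expressed class held 31 members at 0.5 CPM, 26 at 2 CPM, 27 with TMM-scaled totals, and 27 to 29 with 1 library left out.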
